A study of Homo sapiens with 9 samples.

Results

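The genes described here encode the proteins of the nuclear lamina and the high mobility group (HMG) proteins whose loss or gain is used to mark senescent cells. Members were chosen by name, as the rows for LMNB1, LMNB2, LMNA, LBR, TMPO, HMGB1, HMGB2, HMGB3, HMGN2 and HMGA2 in the authors' deposited table of doxorubicin against control. All 10 had a row among the 6499 genes of the table. All 10 also passed the minimum mean of 1 TPM (a share of the transcripts of a library, scaled for their length) over the 6 libraries compared, which left 5721 genes tested.

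The libraries come from WI-38, a human fibroblast line from lung with a limited life span in culture, at population doubling 30 (PD30). The control group (3 libraries) received DMSO, the carrier, in place of doxorubicin and was then kept in medium with DMSO. The model group (3 libraries) received 1 μM doxorubicin, which poisons topoisomerase II and breaks DNA, for 12 h and then medium with DMSO for 48 h. The series has a further group of 3 libraries given oridonin after doxorubicin, which was not analysed here, so none of the values below bears on oridonin. The labels do not say whether the 3 libraries of a group were separate cultures, and the p-values measure only the spread between these libraries. All cells are of this single line, and the labels give no measure of how many of them had stopped dividing.

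The table lists only genes that passed a fold change of 1.2 and a p-value of 0.05 in the authors' own test on the same 6 libraries. A member with a row therefore had to differ between the groups in that test, though not always on the scale used here. The values below give the size and spread of each difference without being a second test of it. The unit is not named in the table and was taken to be TPM, which compares levels per transcript length and keeps no read depth, which therefore stays unknown here. Of 12 fixed fibroblast markers, 5 were listed (COL1A1, COL1A2, COL3A1, PDGFRA and PDGFRB), summing to 5842 to 6195 TPM in control libraries and 3930 to 4616 TPM in doxorubicin libraries. Of the markers of other cell types, no endothelial gene of 4 was listed and PTPRC, the pan-leukocyte marker CD45, was at 0.01 to 0.62 TPM in all 6 libraries. A marker without a row, of any cell type, may still be expressed, as only genes that differed were listed. The keratin genes KRT8, KRT18 and KRT19 of the 6 epithelial markers summed to 135 to 150 TPM in control and 283 to 307 TPM in doxorubicin libraries. CD68, the other leukocyte marker listed, was at 44.9 to 49.0 TPM in control and 87.3 to 93.4 TPM in doxorubicin libraries. The part of these markers in the results was not tested.

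The nuclear lamina is a meshwork of lamins under the inner nuclear membrane that gives the nucleus its shape and anchors heterochromatin. B-type lamins (LMNB1, LMNB2) keep a lipid tail and stay at the membrane, while LMNA gives lamin A and lamin C by alternative splicing. LBR and TMPO encode proteins that bind lamins and chromatin. HMGB proteins bend DNA, HMGN proteins bind nucleosomes and HMGA proteins bind AT-rich DNA through AT hooks. In fibroblasts, loss of lamin B1 and of HMGB2 and release of HMGB1 from the nucleus are widely used as markers of senescence.

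After doxorubicin, 8 of the 10 members were lower and none was higher in the limma fit at a fold change over 1.2 and an unadjusted p under 0.05. Over all genes tested 49.0% were called lower and 23.4% higher by the same rule, and 72.4% were called in either direction, so a lower call by itself is common in this table. The sizes differed widely among the members. LMNB1 fell 24.8-fold in mean TPM, HMGB2 5.63-fold and TMPO 4.84-fold, whereas LMNB2, LBR, HMGB1 and HMGB3 fell 2.09-fold to 2.37-fold and HMGN2 1.39-fold. LMNA and HMGA2 were not called, with mean TPM at 111% and 108% of control. With a fold change over 2 required on the log2(TPM + 1) scale, 6 of the 10 members were lower, where 6.28% of all genes tested were lower and 1.82% higher. LBR, which fell 2.13-fold in mean TPM, missed this threshold at -0.96 in log2 and stood at -1.07 with a pseudocount of 0.1. The median log2 fold change was -1.08 over the members and -0.28 over all genes tested. In 9 of the 10 members the control and doxorubicin libraries did not overlap, as in 80.7% of the genes tested. With 3 libraries in each group, the smallest p an exact permutation test can reach for a single value is 0.1. These RNA levels are averages over bulk cells, in which fewer cells with a transcript and less of it per cell cannot be told apart.

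**Figure D1:**
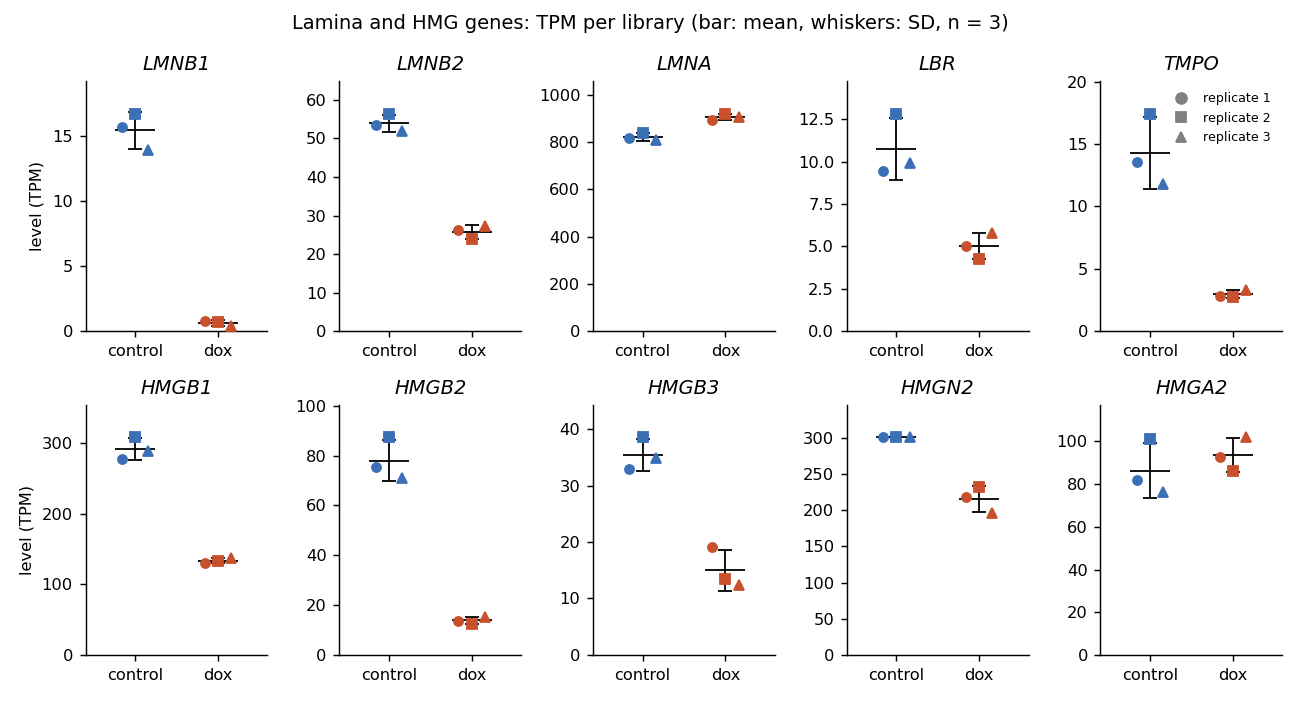
Level of each member in TPM in every library (linear axes from 0), with control libraries in blue and doxorubicin libraries in red, the symbol giving the replicate number, the bar the mean and the whiskers the SD (n = 3). The doxorubicin libraries lie below all control libraries for 8 genes, above them for LMNA (891.87 to 919.12 against 806.39 to 837.4 TPM) and among them for HMGA2.

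Promoter sequences of some of the members that fell are shown first, beside that of LMNA, which was not called, because CCAAT boxes and the TTTGAA element are known from promoters of cell cycle genes. RefSeq promoters on GRCh38.p14 were found for 8 of the 10 members, in 15 windows of 250 bases before a transcription start, and those of HMGB2 and HMGA2 were not matched. The motifs were searched on both strands and are in capitals. They were CCAAT (which reads ATTGG on the other strand), TTTGAA, and the E2F-like words TTTGGCGC and also TTTCCCGC, none of which overlap each other in the stretches shown. Each line gives up to 150 bases before a start, 5′ to 3′ on the strand of the gene, ended where GENCODE annotates an untranslated region of a transcript. They are from LMNB1 (chr5:126776473-126776622, plus strand), HMGB1 (chr13:30465966-30466086, minus strand), HMGB3 (chrX:150983185-150983285, plus strand), HMGN2 (chr1:26472290-26472439, plus strand) and LMNA (chr1:156082423-156082572, plus strand).
LMNB1: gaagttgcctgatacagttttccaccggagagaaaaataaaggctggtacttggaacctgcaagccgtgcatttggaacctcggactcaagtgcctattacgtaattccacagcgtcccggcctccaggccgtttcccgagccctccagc
HMGB1: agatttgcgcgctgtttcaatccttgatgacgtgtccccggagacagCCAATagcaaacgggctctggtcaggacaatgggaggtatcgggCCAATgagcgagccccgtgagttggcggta
HMGB3: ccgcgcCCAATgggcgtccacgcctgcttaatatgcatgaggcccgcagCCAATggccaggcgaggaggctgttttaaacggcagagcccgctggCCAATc
HMGN2: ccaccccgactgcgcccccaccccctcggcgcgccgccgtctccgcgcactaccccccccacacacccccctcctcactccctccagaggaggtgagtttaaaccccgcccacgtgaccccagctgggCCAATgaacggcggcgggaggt
LMNA: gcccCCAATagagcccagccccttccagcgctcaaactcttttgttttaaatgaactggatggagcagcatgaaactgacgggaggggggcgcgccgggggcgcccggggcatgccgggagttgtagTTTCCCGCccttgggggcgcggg
HMGB1 had CCAAT 103, 59 and 28 bases before this start, the last beyond the stretch shown, and HMGB3 had it at 144, 101 and 55 bases. TMPO had it 47 and 15 bases before its start and HMGN2 at 22 bases. LMNB1, the member that fell most, had no motif in the window shown and a CCAAT on the other strand 138 bases before its other start. At least 1 window with CCAAT was present in 6 of the 8 members, LMNA among them, compared with 37.0% of the 27305 genes with a RefSeq window. At least 2 copies in a window were present in 3 of the 8 members (TMPO, HMGB1 and HMGB3) and in 11.5% of genes. Genes with more windows can meet such a count more easily. By window, CCAAT was in 8 of the 15 member windows and in 32.0% of all windows. At least 2 copies were in 4 of the 15 and in 9.53% of all windows. The TMPO windows overlap and share their copies. LBR and LMNB2 were lower after doxorubicin and held no CCAAT in these windows. The stretches of TMPO, LMNB2 and LBR are not printed and held no motif before the annotated untranslated region. HMGB1, HMGB3 and LMNA each also had a window without CCAAT, and the window printed is the one with the most copies. TTTGAA was found in 3 of the 15 member windows and in 13.3% of all windows. These were windows of HMGB1, HMGB3 and LMNB2, each with it more than 150 bases before the start. TTTGGCGC was found in no member window and in 0.55% of all windows. TTTCCCGC was found in 1 of the 15 member windows, in LMNA at 23 bases before the start, and in 1.39% of all windows. A match of letters is a description and does not show binding.

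LMNB1 (ENSG00000113368, chromosome 5, 126776623 to 126837020) encodes lamin B1. Its level was 15.71, 16.72 and 13.92 TPM in control replicates 1 to 3 and 0.82, 0.67 and 0.38 TPM in doxorubicin replicates 1 to 3. All doxorubicin libraries were far below the lowest control library, and over the 9 pairs of libraries the fall was between 17.0-fold and 44.0-fold. The means were 15.5 ± 1.42 and 0.623 ± 0.224 TPM (SD, n = 3 each), a difference of -3.35 on the log2(TPM + 1) scale with a standard error of 0.14 (limma, Benjamini-Hochberg adjusted p = 3.08e-08). This scale understates the change of low genes, and with a pseudocount of 0.1 the value was -4.47. Only 27 of the 5721 genes tested had a lower log2 fold change. LMNB1 was below 1 TPM in every doxorubicin library and passed the minimum mean of 1 TPM only through its control libraries. In the control libraries LMNB1 was above 53.7% of the genes tested in level, and in the doxorubicin libraries it was the lowest of the members.

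LMNB2 (ENSG00000176619, chromosome 19, 2427638 to 2456996), the other B-type lamin, fell less. It had 53.41, 56.43 and 52.06 TPM in control libraries and 26.17, 23.87 and 27.35 TPM in doxorubicin libraries, with no overlap and little spread within a group. In log2 fold change this was -1.04 with a standard error of 0.08 (limma, adjusted p = 3.53e-06), and its mean TPM after doxorubicin was 47.8% of control.

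LMNA (ENSG00000160789, chromosome 1, 156082573 to 156140089) was the most abundant member in both groups, with 814.5, 837.4 and 806.39 TPM in control libraries and 891.87, 919.12 and 906.65 TPM in doxorubicin libraries. The groups did not overlap, but the log2 fold change, 0.14 with a standard error of 0.05 (limma, adjusted p = 0.0159), was under the fold change of 1.2. Its sign depended on the scale of the values, being -0.06 after quantile normalization and 0.39, with a call as higher, after median-ratio scaling. Both scalings could use only the listed genes, which were selected for a difference, and which scale gives the right sign was not tested. The table gives a value per gene, so lamin A and lamin C were not separated.

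Ratios within a library do not depend on any factor by which that library is scaled. LMNA transcripts outnumbered those of LMNB1 by 51.8, 50.1 and 57.9 to 1 in control replicates 1 to 3 and by 1088, 1372 and 2386 to 1 in doxorubicin replicates 1 to 3. The ratio of LMNB1 to LMNA thus fell 28.7-fold (log2 difference -4.84, standard error 0.34, n = 3 each), and that of LMNB2 to LMNA 2.32-fold (log2 difference -1.21, standard error 0.07). The B-type lamins also diverged from each other, as LMNB2 exceeded LMNB1 by 3.38-fold to 3.74-fold in control libraries and by 31.9-fold to 72.0-fold in doxorubicin libraries. Each of these 3 ratios was without overlap between groups (exact two-sided permutation test, p = 0.1, the smallest possible, adjusted p = 0.114 over the 8 pairs compared). LMNB1 made up 1.74 ± 0.126% of the TPM of the 3 lamin genes in control cells and 0.067 ± 0.025% after doxorubicin, LMNB2 went from 6.07 ± 0.117% to 2.77 ± 0.210%, and LMNA from 92.2 ± 0.236% to 97.2 ± 0.204% (SD, n = 3 each). The sum of the lamin genes was 889 ± 19.6 TPM in control and 932 ± 12.5 TPM in doxorubicin libraries.

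**Figure D2:**
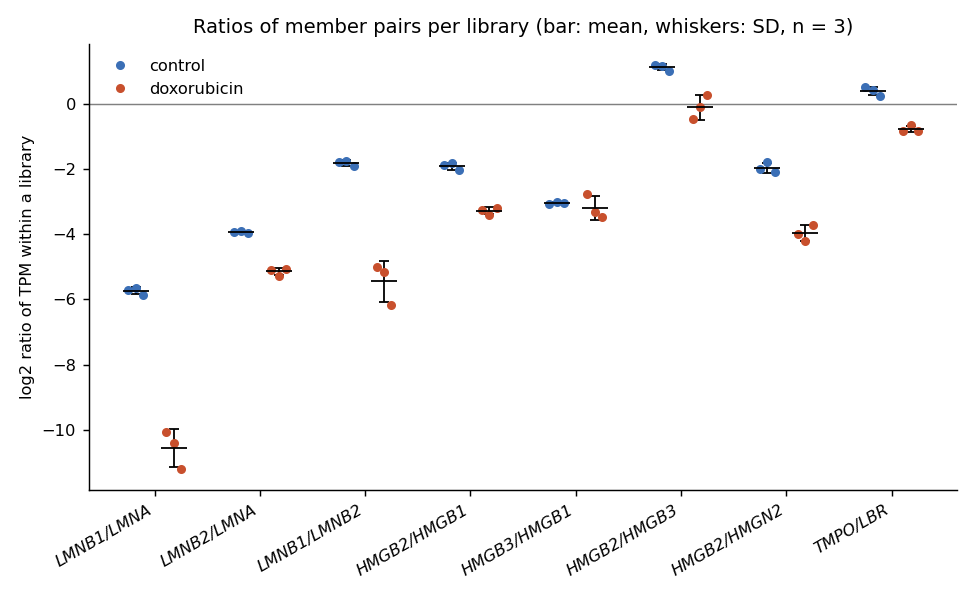
Log2 ratio of the TPM of 2 members within each library for the 8 pairs compared, with control libraries in blue, doxorubicin libraries in red, the bar at the mean and the whiskers at the SD (n = 3). All pairs but HMGB3/HMGB1 are lower in every doxorubicin library than in any control library, LMNB1/LMNA by 4.84 on the log2 scale.

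TMPO (ENSG00000120802, chromosome 12, 98515512 to 98550379) encodes the LAP2 proteins, which were not separated here, as the value is per gene. It had 13.53, 17.43 and 11.83 TPM in control libraries and 2.81, 2.73 and 3.31 TPM in doxorubicin libraries. The control libraries were spread by 20.1% (coefficient of variation), with replicate 2 the highest, and still stayed above every doxorubicin library. In log2 the difference came to -1.94, with standard error 0.15 (limma, adjusted p = 3.02e-06). The antisense gene TMPO-AS1 overlaps TMPO and was listed at 0.617 ± 0.359 TPM in control and 0.06 ± 0.026 TPM in doxorubicin libraries (SD, n = 3 each). Whether counting used the strand is not stated, so reads of the overlap cannot be told apart. TMPO-AS1 came to 4.32% of the TMPO level in control and 2.03% in doxorubicin libraries, and the part of such reads was not tested.

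LBR (ENSG00000143815, chromosome 1, 225401502 to 225428925), the lamin B receptor, which also acts as a sterol reductase, was the lowest member in control cells. Its level was 9.46, 12.84 and 9.9 TPM in control libraries and 5.0, 4.29 and 5.82 TPM in doxorubicin libraries, without overlap. In log2 the difference was -0.96, with standard error 0.15 (limma, adjusted p = 0.000314). Within a library TMPO exceeded LBR by 1.19-fold to 1.43-fold in the control group, and LBR exceeded TMPO by 1.57-fold to 1.78-fold in the doxorubicin group. The ratio of TMPO to LBR fell 2.25-fold (log2 difference -1.17, standard error 0.10, exact two-sided permutation test, p = 0.1, adjusted p = 0.114 over the 8 pairs).

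HMGB2 (ENSG00000164104, chromosome 4, 173331695 to 173335125) fell most among the HMG genes. It had 75.49, 87.32 and 71.17 TPM in control libraries and 13.8, 12.59 and 15.15 TPM in doxorubicin libraries. Every doxorubicin library was at least 4.70-fold below every control library, a log2 difference of -2.41 with standard error 0.10 (limma, adjusted p = 3.08e-08), at place 64 from the lowest of all genes tested.

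HMGB1 (ENSG00000189403, chromosome 13, 30456704 to 30617597), the most abundant HMGB gene and one whose protein acts as an alarmin outside the cell, had 277.33, 307.88 and 288.36 TPM in control libraries and 130.64, 132.4 and 137.38 TPM in doxorubicin libraries. The 3 doxorubicin libraries lay close together, and the groups differed by -1.12 in log2 with a standard error of 0.06 (limma, adjusted p = 1.66e-07). GENCODE release 29 names 48 processed copies of HMGB1, and 2 of them were listed. HMGB1P6 was at 84.51 to 105.5 TPM in control and 42.68 to 46.89 TPM in doxorubicin libraries. HMGB1P5 was at 10.87 to 20.22 TPM in control and 6.04 to 10.57 TPM in doxorubicin libraries. HMGB1P6 thus stood at 31.8% of the HMGB1 level in control cells, and the counting could have split reads of HMGB1 with it. With these 2 copies added, HMGB1 fell 2.14-fold, compared with 2.18-fold without them. Copies that were not listed could not be added, so the part of split reads in this fall was not tested.

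HMGB3 (ENSG00000029993, chromosome X, 150980509 to 150990775) had 32.9, 38.55 and 34.81 TPM in control libraries and 19.11, 13.47 and 12.35 TPM in doxorubicin libraries. Doxorubicin replicate 1 was above the other two but below all control libraries. Limma gave a log2 difference of -1.21 with standard error 0.14 (adjusted p = 7.67e-05). GENCODE names 29 processed copies of HMGB3, none of which was listed, and reads could have been split with them too.

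Within the HMGB family, HMGB2 fell more than HMGB1 and HMGB3. HMGB1 exceeded HMGB2 by 3.53-fold to 4.05-fold in control libraries and by 9.07-fold to 10.5-fold in doxorubicin libraries, so that the ratio of HMGB2 to HMGB1 fell 2.58-fold (log2 difference -1.37, standard error 0.09). HMGB2 was between 2.04 and 2.29 times HMGB3 in the control libraries and between 0.722 and 1.23 times HMGB3 in the doxorubicin libraries (log2 difference -1.23, standard error 0.23). Both differences were without overlap (exact two-sided permutation test, p = 0.1, adjusted p = 0.114 over the 8 pairs). The ratio of HMGB3 to HMGB1 overlapped between groups, with a log2 difference of -0.14 (standard error 0.21, exact two-sided permutation test, p = 0.6, adjusted p = 0.6). It became 0.00596 without doxorubicin replicate 3. HMGB1 made up 72.0 ± 1.08% of the TPM of the 3 HMGB genes in control cells and 82.3 ± 2.06% after doxorubicin, and HMGB2 19.3 ± 1.08% and 8.52 ± 0.626% (SD, n = 3 each). The sum of the 3 genes went from 405 ± 25.6 to 162 ± 3.39 TPM (SD, n = 3 each).

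HMGN2 (ENSG00000198830, chromosome 1, 26472450 to 26475972), a nucleosome-binding protein gene, had 300.74, 300.87 and 300.83 TPM in control libraries and 218.0, 232.46 and 196.59 TPM in doxorubicin libraries. All doxorubicin libraries were lower, at a log2 difference of -0.48 with standard error 0.07 (limma, adjusted p = 0.00015). This was the smallest fall among the members that were called, and it was no longer called after median-ratio scaling (log2 fold change -0.24, adjusted p = 0.062 from limma). The ratio of HMGB2 to HMGN2 fell 4.03-fold (log2 difference -2.01, standard error 0.17, exact two-sided permutation test, p = 0.1, adjusted p = 0.114 over the 8 pairs). GENCODE names 36 processed copies of HMGN2, none of which was listed, and reads could likewise have been split with them.

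HMGA2 (ENSG00000149948, chromosome 12, 65824131 to 65966295), an AT-hook protein gene whose product gathers in the heterochromatin foci of senescent fibroblasts, had 81.82, 100.95 and 76.1 TPM in control libraries and 92.58, 86.0 and 101.91 TPM in doxorubicin libraries. The groups overlapped, and the log2 difference, 0.12 with standard error 0.10 (limma, adjusted p = 0.294), did not pass. After median-ratio scaling it was 0.36 and called as higher (adjusted p = 0.00672 from limma). RPSAP52, which overlaps HMGA2 on the other strand, was at 3.58 ± 0.717 TPM in control and 5.50 ± 0.44 TPM in doxorubicin libraries (SD, n = 3 each), or 4.15% and 5.88% of the HMGA2 level. As for TMPO, reads of the overlap cannot be told apart.

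The order of the levels changed with doxorubicin. In control cells it was LMNA, HMGN2, HMGB1, HMGA2, HMGB2, LMNB2, HMGB3, LMNB1, TMPO and LBR, where HMGN2 and HMGB1, HMGA2 and HMGB2, LMNB1 and TMPO, and TMPO and LBR overlapped in TPM between their libraries. After doxorubicin HMGB2 went from place 5 to place 7 and LMNB1 from place 8 to place 10, and HMGB3 and HMGB2 were the only neighbours that overlapped.

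The fold changes depend on how the libraries are scaled, which the plot of 3 scales shows. Quantile normalization and median-ratio scaling could use only genes with a row, which were selected for a difference between the groups. Their median is therefore not a baseline of unchanged genes, and which scale is nearest the truth was not tested. With the unit taken as TPM, the share of the listed genes was 54.3% to 54.8% in control libraries. It was larger, 58.6% to 60.0%, in doxorubicin libraries. Over all genes tested, the median change in log2 was -0.28 with TPM as given, -0.01 after quantile normalization and -0.08 after median-ratio scaling, and 32.3%, 53.1% and 54.7% of the calls over all genes were then higher. Relative to the median on the TPM values, LMNB1 stood at -3.06, HMGB2 at -2.13 and TMPO at -1.65, while HMGN2 stood at -0.20, HMGA2 at 0.40 and LMNA at 0.43. LMNB1, LMNB2, TMPO, LBR, HMGB1, HMGB2 and HMGB3 were lower on each of the 3 scales. Of the 8 members called lower on the TPM values, 8 were called lower after quantile normalization (29.7% of all genes tested) and 7 after median-ratio scaling (36.7%). None was called higher after quantile normalization (33.5% of all genes tested), and LMNA and HMGA2 were called higher after median-ratio scaling (44.3%).

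**Figure D3:**
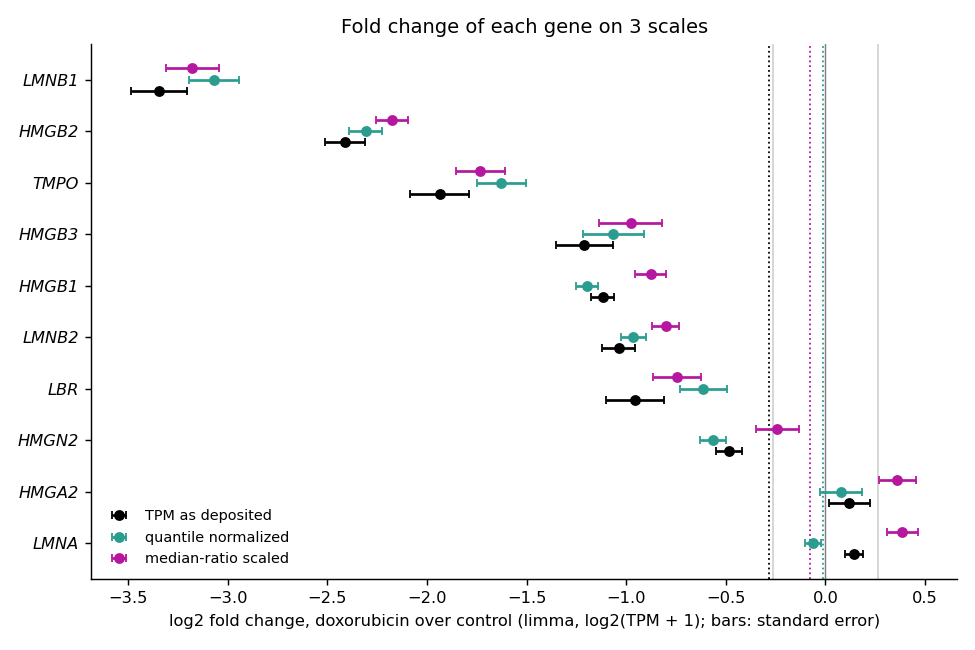
Log2 fold change of each member (doxorubicin over control, limma on log2(TPM + 1)) on 3 scales of the values, with the standard error as bars, the median of all genes tested as dotted lines in the colour of the scale and a fold change of 1.2 either way as grey lines. LMNB1, HMGB2 and TMPO lie lowest on each scale, and LMNA lies at 0.14, -0.06 and 0.39.

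The genes tested lay mostly on either side of a gap. Of them, 113 genes had a log2 fold change from -0.2 to 0, compared with 1140 from -0.6 to -0.4 and 1104 from 0.1 to 0.3. LMNA and HMGA2 lay just above this gap. They belong to the 21.5% of genes tested whose mean TPM differed by less than 1.2-fold either way, although the table was selected at a fold change of 1.2.

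**Figure D4:**
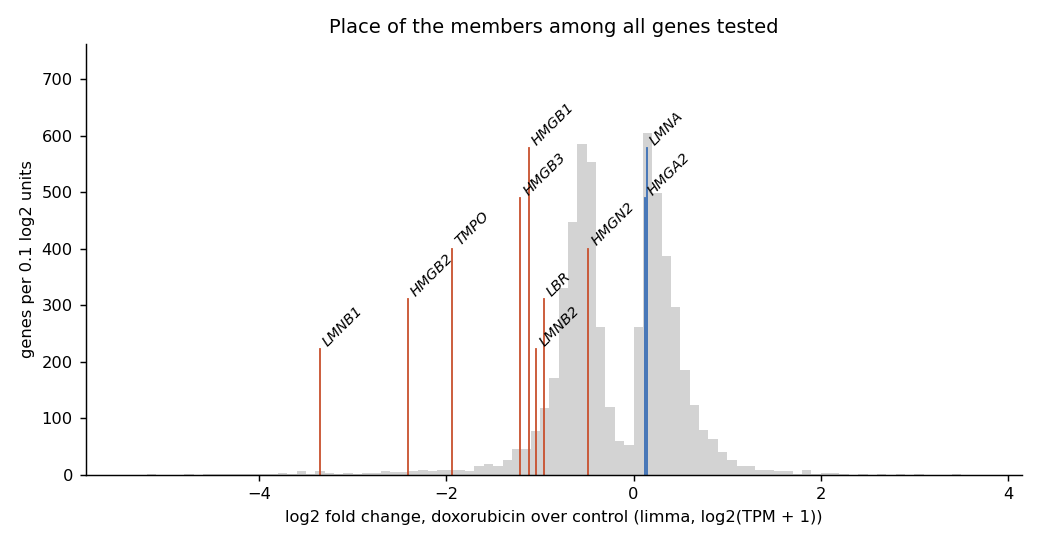
Number of genes tested per 0.1 log2 units of fold change (doxorubicin over control, grey), with the place of each member as a line, red for lower and blue for higher values. LMNB1, HMGB2 and TMPO stand in the lower tail, with 0.472%, 1.10% and 1.77% of the genes tested below them, and LMNA and HMGA2 stand at 62.6% and 60.1%.

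Control replicate 2 had the highest value of the 3 control libraries for all 10 members. The same library was highest for all 16 genes of a list of S to M phase genes and for 45.7% of all genes tested. Without it, the log2 fold change of TMPO was -1.79 and that of LBR -0.83, and 8 members were lower as before (45.8% of all genes tested). The 16 cell cycle genes were all lower (49.0% of all genes tested), with a median of -3.23 in log2 compared with -0.28 over all genes. Among them PLK1, a mitotic kinase gene, had the lowest value on the log2(TPM + 1) scale at -3.81. In mean TPM it fell 27.9-fold and others of the list fell more, CDK1 among them at 84.1-fold. LMNB1 at -3.35 lay within their range, and their part in the member results was not tested.

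The genes most like LMNB1 over the 6 libraries, by the root mean square difference of log2(TPM + 1) centred on each gene's mean, were KIFC1 (0.09), CCNB1 (0.13), MKI67 (0.15), CDCA3 (0.15) and MYBL2 (0.15). KIFC1, a kinesin gene of the spindle, had 12.34, 14.05 and 13.28 TPM in control and 0.5, 0.39 and 0.26 TPM in doxorubicin libraries, near the levels of LMNB1 itself. Those most like HMGB2 were SMC4 (0.08), IQGAP3 (0.09), ZWINT (0.09), CENPU (0.09) and FAM83D (0.11). SMC4, a condensin subunit gene, had 19.37, 20.47 and 18.12 TPM in control and 3.11, 2.39 and 3.63 TPM in doxorubicin libraries. These likenesses rest on 6 libraries in 2 groups and on the log2(TPM + 1) scale, which flattens falls to near 0, so that genes matched on it differ in their fall in TPM. MKI67 fell 176-fold in mean TPM, where LMNB1 fell 24.8-fold. IQGAP3 went from a mean of 4.41 to 0.08 TPM and HMGB2 from 78.0 to 13.8 TPM.

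Among 20 fixed partners of the lamina and inner nuclear membrane, 11 were listed and 10 tested, of which 9 were lower and 1 was higher, where 49.0% of all genes tested were lower and 23.4% higher. Their median log2 fold change was -0.51, compared with -0.28 over all genes. After quantile normalization 4 of the 10 were called lower, near the 29.7% of all genes, and after median-ratio scaling 7 were (36.7% of all genes), with 1 higher on each scale. SUN2, an inner membrane protein of the complex that links the lamina to the cytoskeleton, fell most on the log2(TPM + 1) scale, from 35.0 ± 2.61 to 18.1 ± 2.08 TPM (SD, n = 3 each), in log2 a difference of -0.92 (standard error 0.10). SYNE2, a low gene of the same complex, fell more in mean TPM, 2.58-fold compared with 1.94-fold for SUN2. PRR14, which tethers heterochromatin to the lamina, was the gene that rose, from 13.8 ± 0.403 to 18.2 ± 1.63 TPM (SD, n = 3 each), in log2 a difference of 0.38 (standard error 0.10). LMNTD2 was listed with a mean under 1 TPM and was not tested. Of 5 enzyme genes of lamin processing, ICMT, which methylates the lamin tail, was the listed one and was lower at a log2 fold change of -0.44 (standard error 0.09), a call lost after median-ratio scaling (-0.21).

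Of 14 other genes with HMG domains or names, 6 were listed, and 5 were lower (49.0% of all genes tested), with a median of -0.69 in log2 over the 6 and -0.28 over all genes. TOX fell most, from 5.52 ± 0.335 to 2.16 ± 0.337 TPM (SD, n = 3 each), in log2 a difference of -1.05 (standard error 0.13). HMG20B, the sixth, had 70.7 ± 4.44 and 79.0 ± 2.12 TPM (SD, n = 3 each) and was not called on the TPM values or after quantile normalization but was called higher after median-ratio scaling. Of 16 genes of heterochromatin and of senescence-associated foci, 6 were listed and all 6 were lower (49.0% of all genes tested), with a median of -0.59 in log2 compared with -0.28 over all genes. After quantile normalization 4 were called lower (29.7% of all genes) and after median-ratio scaling 5 (36.7%). CBX5, which encodes HP1 alpha, fell most among them, from 11.6 ± 0.96 to 6.38 ± 0.491 TPM (SD, n = 3 each), in log2 a difference of -0.77 (standard error 0.12). Of 12 further senescence markers 7 were listed, 3 higher (23.4% of all genes tested) and 3 lower (49.0%). After median-ratio scaling 4 were called higher (44.3% of all genes tested) and 3 lower (36.7%). GDF15, a secreted stress factor, rose most, from 44.6 ± 2.28 to 128 ± 10.7 TPM (SD, n = 3 each), and the proliferation marker MKI67 fell most, from 8.20 ± 1.07 to 0.047 ± 0.055 TPM (SD, n = 3 each). MKI67 is also in the list of S to M phase genes, so its fall is counted in both lists. The genes of these lists without a row were not analysed here.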

How the data were processed

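WI-38 RNA was extracted with Trizol and sequenced from both ends on Illumina instruments. The table the authors deposited holds a number for each gene in each library, read here as TPM because the submitters' processing notes name RSEM, and reading it as FPKM would change each library by a common factor. The submitters also name CASAVA, HISAT2, StringTie, DESeq2 and edgeR, and the mouse build GRCm38, which goes against the human Ensembl identifiers of the table. The table also holds group means, fold changes and p-values of the authors' own comparison, which were not used. The oridonin libraries were not analysed here.

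After a filter on the mean over the 6 libraries (1 TPM or more), log2(TPM + 1) values of the control and doxorubicin groups were compared in R 4.3.3 by limma 3.58.1, with the trend and robust options of eBayes, over all 5721 genes, with the Benjamini-Hochberg adjustment over all of them. A change was called where the fold change exceeded 1.2 and the p before adjustment was below 0.05, the thresholds of the paper's methods. The fit was tested on simulated data. Ratios of 8 pairs of members were compared by exact two-sided permutation tests in SciPy 1.17.1. Precision rests on 3 libraries per group, as TPM keeps no depth. Positions and processed copies are from GENCODE release 29 on GRCh38, matched by Ensembl identifier, and promoters from RefSeq on GRCh38.p14, matched by symbol. Named genes are the members, the genes with the largest called rise and fall of each list, and the 5 genes most like LMNB1 and HMGB2. The members and lists were chosen with earlier results of these data known. The alternatives were other pseudocounts, filters, scalings, thresholds and moderation, a replicate block, and each library left out.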

Additional observations from a re-analysis of the deposited data

How the results depend on the processing

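Over all alternatives 6 to 9 members were called, as 8 were on the TPM values, and 6 to 8 were lower. Of all genes tested, 463 to 4638 were called over the same alternatives, and 6.28% to 49.9% were lower. The count of members called higher was 0 and became 2 after median-ratio scaling (LMNA and HMGA2), and the log2 fold change of LMNA, 0.14 on the TPM values, was -0.062 after quantile normalization. With each library left out in turn 8 members were called lower, where 45.8% to 49.9% of all genes tested were. The log2 difference of HMGB3 to HMGB1 then ran from -0.35 to 0.00596, the latter without doxorubicin replicate 3. The cause was not tested. HMGN2 was not called after median-ratio scaling, and HMGN2 and LBR were not called with a fold change over 2 required, where 463 of all genes tested were called instead of 4142. The other 7 pair ratios kept their direction, also with 0.1 added to the values. Whether the same replicate numbers pair the libraries is not known. Same-numbered deviations from the group means correlated at -0.06, -0.19 and -0.23. Deviations within a group cancel each other, so these correlations cannot decide it. With the replicate block 8 members were called, as without it, where 4038 of all genes tested were called with it and 4142 without it. TPM keeps no depth, so how well the low LMNB1 values after doxorubicin were measured is unknown. The selection of listed genes on the same libraries limits every test here.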

Other observations

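The control values of HMGN2 (300.74, 300.87 and 300.83 TPM) had a coefficient of variation of 0.022%, the smallest among the 5721 genes tested, whose median was 8.06%. In the doxorubicin libraries the coefficient of HMGN2 was 8.37%. The standard error of its log2 fold change in limma draws on the spread of the other genes as well and on the doxorubicin libraries.

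LMNB1 had the widest relative spread of the members after doxorubicin, with a coefficient of variation of 35.9% at a mean of 0.623 TPM, and HMGB3 came next at 24.2%. In control cells TMPO and LBR were the widest, at 20.1% and 17.1%.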
